A study of Mus musculus with 16 samples.

Results

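Loss of Tet2 on top of loss of p300 was examined by setting the 4 P300KO_TET2KO ATAC-seq libraries of mouse hematopoietic stem and progenitor cells (HSPCs) against the 4 P300KO libraries, which together are 8 of the 16 samples of the series. P300KO cells came from Mx1-Cre;Ep300 fl/fl mice, and P300KO_TET2KO cells came from Mx1-Cre;Ep300 fl/fl;Tet2-/- mice, so Ep300 was deleted in both groups and Tet2 loss was what set them apart. The TET2KO group (Ep300 fl/fl;Tet2-/-) and the WT group (Ep300 fl/fl) of the same series had intact Ep300 and served as the same comparison with p300 present. All 4 genotypes received poly(I:C), which switches on Mx1-Cre in blood cells and in other interferon-responsive cells, as young adults. Ep300 was therefore deleted in young adults, while the Tet2-/- genotype did not depend on Cre.

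Mice of both sexes were kept on a C57BL/6 background, and each library pooled HSPCs of 2 age-matched mice of the same genotype. The sorted cells were lineage-negative, Sca1+ and c-Kit+, were frozen and thawed, and were tagmented with Tn5 transposase. The study's methods set a usual time between poly(I:C) and experiments, with exceptions, and their account of the ATAC-seq does not say which applied. The sex of the mice behind each library was not given, and for the Tet2 allele the methods refer to earlier work that was not used here. Replicates 1 and 2 of each genotype carried a merged-peak label and replicates 3 and 4 did not, so the comparison was made within these replicate pairs.

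ATAC-seq reads out open chromatin, the stretches of the genome that the transposase can reach, which are mostly promoters and enhancers. TET2 oxidizes methylated cytosine in CpG dinucleotides, a step towards removal of DNA methylation, and is often mutated in clonal hematopoiesis and myeloid neoplasms. p300, the product of Ep300, is a lysine acetyltransferase that acetylates histones at active enhancers and promoters and serves as a coactivator of many blood transcription factors.

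The deposited lists give peaks, not reads, so the quantity compared was rank. The intervals of each library were ordered by the −log10 p of the peak caller, the strongest 50000 were kept, and each region received a rank percentile from 100 for the strongest interval to 0 for a region outside the 50000. A percentile of 0 does not mean closed chromatin, since a weaker peak could still stand further down the list. The 8 lists merged into 65076 regions, of which 49684 were in the strongest 50000 of at least 4 libraries and were tested with limma, with the replicate pair as a covariate and Benjamini-Hochberg adjustment over all of them. A region was called at an adjusted p under 0.05. It was described as ranked higher in both pairs when, in replicates 1 and 2 and again in replicates 3 and 4, both P300KO_TET2KO values lay above both P300KO values, and lower in the reverse case.

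Several technical values moved with genotype or with replicate and have to be kept beside the results. The interval at rank 50000 had a −log10 p of 10.1, 5.74, 53.9 and 34.8 in P300KO replicates 1 to 4 and of 13.6, 21.7, 64.1 and 56.1 in P300KO_TET2KO replicates 1 to 4, so within both pairs the P300KO_TET2KO lists were the stronger ones. The median fold enrichment of the strongest 50000 was 5.06 to 13.2 in P300KO and 8.58 to 15.7 in P300KO_TET2KO. The full lists held 86039 to 135726 intervals in P300KO and 96986 to 131832 in P300KO_TET2KO. The part of signal strength in the results below was not tested. Sequencing depth could not be read from the peak lists.

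The sorted population was checked at promoters. Of 12 HSPC genes, 11 or 12 had a promoter interval in the strongest 50000 of every library of both genotypes. The promoters of the T and NK cell genes Cd3e, Cd4, Cd8a and Ncr1 had none in all 8 libraries, and the mature B cell genes Ms4a1 and Cd79a and the neutrophil gene Ly6g had none either. Of 4 erythroid markers 2 to 3 were present in P300KO_TET2KO libraries and 1 to 3 in P300KO libraries, and of 4 mature granulocyte markers 1 to 3 were present in both. Of 16 endothelial markers 11 to 12 were present in P300KO_TET2KO and 10 to 12 in P300KO, of 16 stromal and bone markers 8 to 9 in both, and of 14 neuron and hepatocyte markers 7 to 8 and 6 to 7, so the presence of a promoter interval did not separate cell types by itself. Ep300 and Tet2 themselves kept their promoter intervals. The Tet2 promoter ranked at 84.5, 82.9, 78.5 and 76.2 in P300KO_TET2KO and at 81.4, 89.2, 80.1 and 78.9 in P300KO (difference −1.86 ± 1.71 points, SE, adjusted p = 0.684), and the Ep300 promoter at 85.8, 84.8, 87.0 and 88.0 against 89.3, 91.9, 87.9 and 87.2 (adjusted p = 0.376). Open chromatin at a promoter does not check a deletion elsewhere in the gene.

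limma called 123 regions higher in P300KO_TET2KO (0.248% of the regions tested) and 160 lower (0.322%). The called differences were large. Their median was 32.5 points among the higher and −34.1 among the lower regions, against a median of 0.426 over all tested regions and a median standard error of 5.57. All 283 called regions were also separated in both replicate pairs, with medians of 30.2 and 32.1 points in the pairs for the higher and −30.8 and −35.3 for the lower regions. These are the values that gave the calls, so this is no second test. Over all tested regions the differences in the 2 pairs had a Pearson correlation of 0.213. Separation in both pairs alone, which carries no test, covered 3324 regions ranked higher (6.69%) and 2408 ranked lower (4.85%). The calls depended on the settings of the fit and on how intervals were ordered. With no filter on the number of lists 7 of the 283 regions were called, and with no covariate for the replicate pair 52. Ranking by fold enrichment in place of −log10 p left 90 called regions, and 72 of the 283 were among them. With that ranking 57.8% of the calls were higher, against 43.5% here. Of the 283 regions, 268 could be matched to a region ranked by fold enrichment, and 257 of these kept their direction. Values by fold enrichment are given below for only part of the named regions. Single libraries mattered as well. The number of calls was 70 without P300KO replicate 4, 109 without replicate 3, 426 without replicate 2 and 101 to 143 without 1 of the P300KO_TET2KO libraries. The balance of directions moved too, with 26 to 236 regions called higher and 38 to 190 lower. The higher share of the calls was 52.5% without P300KO replicate 1 and 55.4% without replicate 2, and 25.7% to 28.9% without 1 of the P300KO_TET2KO libraries.

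Called regions were seldom all-or-none. Of the 123 higher regions, 17 lay outside the strongest 50000 in all 4 P300KO libraries, 53 were inside in all 8 libraries, and 95 had some peak in the full lists of all 4 P300KO libraries. Of the 160 lower regions, 24 lay outside the strongest 50000 in all 4 P300KO_TET2KO libraries, 75 were inside in all 8, and 143 had a peak in all 4 full P300KO_TET2KO lists. A region at 0 in all 4 libraries of a genotype passed the filter only through the other genotype, so its groups could not overlap and that separation is no result. The filter let in 137 such regions through P300KO_TET2KO and 114 through P300KO, of which 17 and 24 were called. Leaving out a library of the genotype that holds such a region takes it below the filter, so it could be refitted in 4 of the 8 fits without 1 library, never without a library in which it is high. The other 242 called regions were inside the strongest 50000 in at least 1 library of each genotype. The plot of the differences in the 2 pairs shows the called regions in its upper right and lower left corners.

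**Figure D1:**
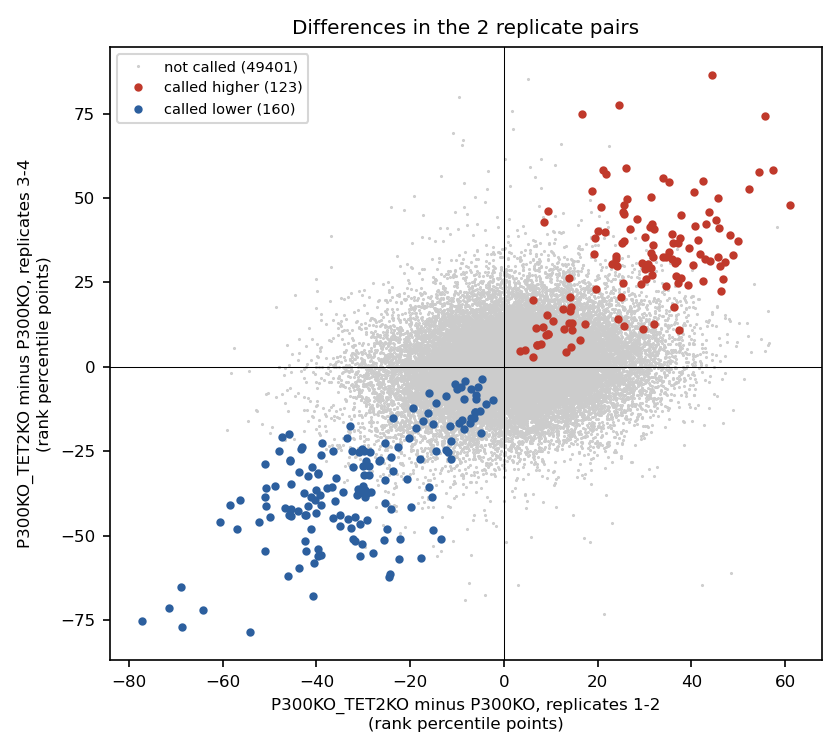
Each point is 1 of the 49684 tested regions, placed by the difference of mean rank percentile (P300KO_TET2KO minus P300KO, in percentile points) in replicates 1 and 2 on the horizontal axis and in replicates 3 and 4 on the vertical axis. Red points are the 123 regions called higher, blue points the 160 called lower and gray points the rest. All called points lie in the quadrants where both pairs have the same sign.

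The sequences at the center of 10 called regions are shown because they carry some of the largest changes or lie beside genes that act in blood cells, and because TET2 acts on CpG dinucleotides, which stand in capitals. Each is the 201 bases around a summit, read from the + strand of the reference genome GRCm38 (mm10). The 5 regions that fell were these.
no gene, chr1:35869744-35869944: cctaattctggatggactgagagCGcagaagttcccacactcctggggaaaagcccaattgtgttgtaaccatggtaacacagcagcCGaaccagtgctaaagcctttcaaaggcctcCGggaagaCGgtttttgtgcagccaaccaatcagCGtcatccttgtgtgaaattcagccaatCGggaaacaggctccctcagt
Uggt2, chr14:118982667-118982867: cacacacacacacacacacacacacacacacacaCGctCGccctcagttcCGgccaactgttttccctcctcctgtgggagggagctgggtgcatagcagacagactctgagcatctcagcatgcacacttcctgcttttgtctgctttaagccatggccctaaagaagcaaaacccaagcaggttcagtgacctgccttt
Gata2, chr6:88166145-88166345: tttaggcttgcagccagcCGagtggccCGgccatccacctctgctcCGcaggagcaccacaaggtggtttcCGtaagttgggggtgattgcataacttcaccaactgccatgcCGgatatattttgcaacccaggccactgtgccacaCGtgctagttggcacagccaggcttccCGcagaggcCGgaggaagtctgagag
Nfkbia, chr12:55465655-55465855: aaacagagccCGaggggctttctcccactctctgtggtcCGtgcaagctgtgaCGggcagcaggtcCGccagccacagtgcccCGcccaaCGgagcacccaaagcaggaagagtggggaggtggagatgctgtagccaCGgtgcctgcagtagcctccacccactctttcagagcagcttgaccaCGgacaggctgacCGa
Ifngr2, chr16:91534565-91534765: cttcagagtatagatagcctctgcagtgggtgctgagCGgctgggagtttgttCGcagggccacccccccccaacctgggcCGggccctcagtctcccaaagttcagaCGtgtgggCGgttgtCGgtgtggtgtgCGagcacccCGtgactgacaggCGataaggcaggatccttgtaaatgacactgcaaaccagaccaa
The 5 regions that rose were these.
no gene, chr11:26805020-26805220: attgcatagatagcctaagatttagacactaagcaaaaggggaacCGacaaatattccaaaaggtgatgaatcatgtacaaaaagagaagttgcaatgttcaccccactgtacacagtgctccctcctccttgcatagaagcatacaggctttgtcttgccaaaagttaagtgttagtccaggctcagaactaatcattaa
Glis1, chr4:107457662-107457862: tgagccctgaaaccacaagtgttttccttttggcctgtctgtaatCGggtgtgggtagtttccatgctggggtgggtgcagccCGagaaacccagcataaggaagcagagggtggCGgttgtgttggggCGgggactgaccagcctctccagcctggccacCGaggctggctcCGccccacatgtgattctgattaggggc
Slc15a2, chr16:36770264-36770464: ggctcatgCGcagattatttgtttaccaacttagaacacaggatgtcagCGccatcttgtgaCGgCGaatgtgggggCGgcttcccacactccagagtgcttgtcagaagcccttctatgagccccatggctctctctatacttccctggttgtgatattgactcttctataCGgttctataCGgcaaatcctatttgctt
Alad, chr4:62519846-62520046: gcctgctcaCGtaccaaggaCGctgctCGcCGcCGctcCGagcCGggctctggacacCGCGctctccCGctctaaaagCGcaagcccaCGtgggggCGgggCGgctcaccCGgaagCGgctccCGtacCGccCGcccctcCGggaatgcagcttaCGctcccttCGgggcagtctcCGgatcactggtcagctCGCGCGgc
Ppm1h, chr10:122886180-122886380: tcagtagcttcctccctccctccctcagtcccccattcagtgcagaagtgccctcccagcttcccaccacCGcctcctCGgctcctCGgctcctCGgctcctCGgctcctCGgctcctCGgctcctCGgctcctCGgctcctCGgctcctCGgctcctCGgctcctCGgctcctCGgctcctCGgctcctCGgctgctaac
The fallen regions held 3 to 9 CpGs in these windows. The risen regions ranged from 1 CpG on chromosome 11 to 26 at the Alad promoter. The Ppm1h window held 16 CpGs, most of them in a tandem repeat, and the Uggt2 window opened with a run of CA repeats. The Gata2 window contained the PU.1 string GAGGAAGT, the MYC string CACGTG and the MYB string AACTGCC. The Alad window held CACGTG and the ETS string CCGGAAG, and the Glis1 window the RUNX string TGTGGTT in the reverse orientation.

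The largest falls were at sites where every P300KO library had a strong interval. The region chr1:35869369-35870162, intergenic and with no protein-coding start within 100 kb, ranked at 75.8, 78.5, 71.1 and 79.5 in P300KO and was outside the strongest 50000 in all 4 P300KO_TET2KO libraries. The difference of −76.2 ± 6.23 points (SE, adjusted p = 2.1e-05) was the largest of all those called, at a region that was tested only because all 4 P300KO lists held it. An interval 23528 bp from the start of Uggt2, which encodes a glucosyltransferase of endoplasmic reticulum quality control, ranked at 76.6, 66.2, 74.7 and 68.5 in P300KO and at 0 in all 4 P300KO_TET2KO libraries (adjusted p = 5.27e-05). An intron of Skint3 had the same pattern, with 67.1, 70.3, 75.3 and 79.1 in P300KO and 0 in all 4 P300KO_TET2KO libraries (adjusted p = 3.98e-05). Both regions were likewise tested through the P300KO lists alone. At Skint3 the full lists of P300KO_TET2KO held no peak in any of the 4 libraries, and at the Uggt2 site they held 1 in 1 of 4.

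Other large falls left a weaker interval in some P300KO_TET2KO libraries. A region 21558 bp from Creb3l2, which encodes a transcription factor anchored in the endoplasmic reticulum, ranked at 79.9, 74.3, 86.7 and 86.4 in P300KO and at 0, 16.2, 42.9 and 0 in P300KO_TET2KO (−67.0 ± 7.7 points, adjusted p = 0.000791). A region 10319 bp from the zinc finger gene Bnc2 ranked at 62.8, 58.4, 77.7 and 80.7 against 19.2, 0, 48.4 and 0.5 (adjusted p = 0.00774). A region inside Smap2, a GTPase-activating protein for Arf, ranked at 61.5, 63.2, 64.0 and 69.0 against 0, 3.7, 20.2 and 20.9 (adjusted p = 0.0011). In none of these 3 did the groups overlap. Without P300KO replicate 4 the Bnc2 region no longer passed (adjusted p = 0.0664). Further called regions fell by 47.2 to 68.1 points, near Stc2, which encodes the secreted glycoprotein stanniocalcin 2, near Prg2, in the phosphatase gene Ptpn21, in Fam69a and at regions of chromosomes 11 and 14 that had no gene by the naming rule. Ranked by fold enrichment, the Ptpn21 region gave −25.3 points (adjusted p = 0.191) against −52.6. With that ranking the regions near Creb3l2, Bnc2 and Stc2 kept their direction but missed the threshold (adjusted p = 0.0946, 0.0834 and 0.128). The Fam69a call was lost without P300KO replicate 4 (adjusted p = 0.051).

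The largest rises had the reverse form. The region chr11:26804788-26805597, with no protein-coding start within 100 kb, ranked at 67.0, 47.9, 54.8 and 61.6 in P300KO_TET2KO and at 0 in all 4 P300KO libraries (57.8 ± 6.88 points, adjusted p = 0.000981), although each P300KO list held a weaker peak there. It was tested through the P300KO_TET2KO lists alone. An intron of Glis1, a zinc finger transcription factor gene, ranked at 69.0, 58.4, 76.5 and 76.0 against 0, 16, 0.8 and 3.2 (65.0 ± 7.01 points, adjusted p = 0.000373). A region in Ppm1h, which encodes a protein phosphatase, ranked at 67.3, 65.8, 62.2 and 53 against 8.5, 2.6, 0 and 19.4 (adjusted p = 0.00188). At Glis1 and Ppm1h the groups were far apart in every replicate. The promoter-side region of Slc15a2, a peptide transporter gene, ranked at 44.7, 46.7, 52.7 and 47.6 against 0 in all 4 P300KO libraries (adjusted p = 0.00197), and it too entered through the P300KO_TET2KO lists alone. The region 53793 bp from Bod1, a gene of chromosome alignment in mitosis, was less even in P300KO, with 81.7, 79.8, 86.2 and 86.7 against 13.4, 59.4, 0 and 0 (adjusted p = 0.0028).

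Regions of 42.7 to 56.0 points rose at Atf2, a stress-responsive transcription factor gene, at Cap1, which encodes an actin regulator, at Musk, a receptor tyrosine kinase of the neuromuscular junction, at another site of Uggt2, near Tnp1 and near Cdrt4. The Tnp1 region, at 0 in all 4 P300KO libraries, was tested through the P300KO_TET2KO lists alone. Ranked by fold enrichment, the Cap1 region gave 19.3 points (adjusted p = 0.148) against 42.7. The Sv2c region ranked at 41.2, 75.3, 75.6 and 7.5 against 0 in all 4 P300KO libraries. Its P300KO_TET2KO values were widely spread, and the difference of 49.9 ± 11.5 points did not pass (adjusted p = 0.065). It did with the replicate number as a block (adjusted p = 0.0345). The Sv2c region too was tested through the P300KO_TET2KO lists alone, so its groups could not overlap. It was called in none of the 4 fits without a P300KO library (adjusted p up to 0.178). The map of the 24 largest differences gives every library's value.

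**Figure D2:**
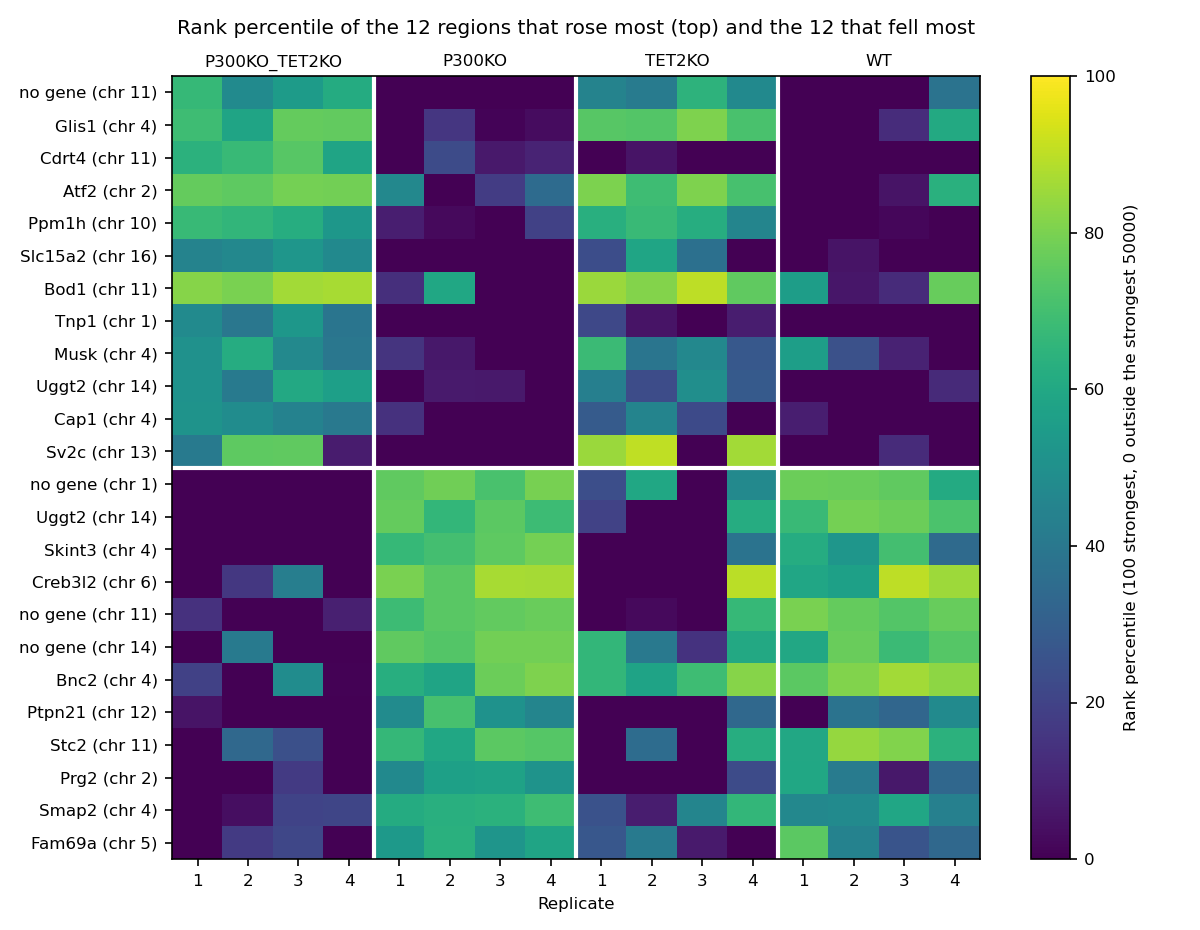
Rank percentile (color scale, 0 outside the strongest 50000 to 100 for the strongest interval) of the 12 regions with the largest rise and the 12 with the largest fall in both replicate pairs, 1 row for each region and 1 column for each of the 16 libraries. Within each replicate pair the upper rows are brighter in P300KO_TET2KO than in P300KO and the lower rows darker, as the choice of rows requires, with single libraries apart from their group, such as P300KO_TET2KO replicate 4 at Sv2c (7.5) and P300KO replicate 2 at Bod1 (59.4). TET2KO and WT were not used to choose the rows.

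Genes with more than 1 called region were looked up after the values were seen, and 13 were found. The promoter of Cwc22, a gene of the spliceosome, had the lowest adjusted p of all regions. It ranked at 100.0 in all 4 P300KO_TET2KO libraries and at 86.9, 84.3, 82.8 and 81.7 in P300KO (16.1 ± 0.941 points, adjusted p = 4.0e-07), and a region 75315 bp away ranked at 37.6, 48.1, 29.0 and 35.0 against 0 in all 4 (adjusted p = 0.00971). The distant region was tested through the P300KO_TET2KO lists alone. At the promoter, where the P300KO_TET2KO interval was among the strongest of the genome, ranking by fold enrichment gave 1.37 points with an adjusted p of 0.724. The distant Cwc22 region was lost without P300KO replicate 4 (adjusted p = 0.0578). The terminal uridylyltransferase gene Tut7 had 2 risen regions, of which the one 30076 bp away ranked at 82.4, 80.7, 86.4 and 85.7 against 64.2, 49.1, 69.4 and 61.4 (adjusted p = 0.00215). The other Tut7 region lost its call in 4 of the 8 fits that leave out 1 library (adjusted p up to 0.124) and gave 5.09 points when ranked by fold enrichment, against 10.1. Frmd5 and the ubiquitin ligase gene Mid1 had 2 risen regions each, but the direction at the Frmd5 promoter and at both Mid1 regions turned when intervals were ranked by fold enrichment. With the replicate number as a block both Frmd5 regions missed the threshold (adjusted p = 0.0612 and 0.0574), and leaving out single libraries took the calls from both Mid1 regions, with adjusted p up to 0.166 and 0.0747.

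Both Cd244a, a SLAM family gene whose protein binds CD48, and Nfe2l2, the NRF2 gene of the oxidative stress response, had 2 fallen regions. The Cd244a promoter ranked at 39.9, 56.9, 54.9 and 55.6 in P300KO_TET2KO and at 72.8, 69.4, 74.0 and 83.9 in P300KO (−23.2 ± 4.02 points, adjusted p = 0.013). A region 58385 bp from Nfe2l2 ranked at 77.7, 77.5, 85.3 and 83.3 against 91.3, 88.8, 92.2 and 93.5 (−10.5 ± 1.23 points, adjusted p = 0.000936), and one 26255 bp away at 8.6, 12.2, 34.4 and 4.0 against 54.6, 57.1, 63.2 and 63.5. Ranked by fold enrichment the farther region gave −2.61 points (adjusted p = 0.382) and the nearer −39.1 points (adjusted p = 0.0627). Opposite changes around a gene also occurred. In Ppm1h the exon region above rose while 2 intron regions 39852 and 41902 bp from the start fell by 43.3 and 29.5 points, and in Cerk, the ceramide kinase gene, a region 5162 bp away rose by 32.0 points and one 8564 bp away fell by 31.7. Several of these calls rested on single libraries. The second Cd244a region lost its call in 5 of the 8 fits without 1 library (adjusted p up to 0.128), and gave −20.2 points when ranked by fold enrichment, against −42.8. Without P300KO replicate 4 the adjusted p was 0.118 at the Cd244a promoter, 0.0553 at the nearer Nfe2l2 region, 0.178 at the smaller fall in Ppm1h and 0.128 at the fall near Cerk, and with the replicate number as a block it was 0.0653 in Ppm1h at 41902 bp and 0.0793 at the rise near Cerk.

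Called regions were then read by pathway, over 33 lists of genes for blood lineages and signaling. The lists covered 4645 of the tested regions, of which 21 were called (0.452%, against 0.57% of all tested regions), and no list held more than 3. The called share was 0.474% to 1.23% in the 5 lists with a region called higher, against 0.248% of all regions, and 0.358% to 2.47% in the 13 with a region called lower, against 0.322%, while 16 lists had none. With 1 to 3 calls a list, these shares rest on single regions. Regions that ranked higher or lower in both pairs were therefore counted too, and read against the shares of 6.69% and 4.85% over all regions. All of the 137 and 114 regions tested through 1 genotype alone are among those counted, since the filter fixed their separation. They were not taken out of the list shares. The members of these lists were taken in the order of their roles, from stem cell genes to lineages, receptors and chromatin. For a called region, the highest adjusted p over the fits that leave out 1 library (8, or 4 for a region tested through 1 genotype alone) is given where it exceeded 0.05.

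Among 249 tested regions of 40 stem cell regulators, 15 (6.02%) ranked higher and 12 (4.82%) lower in both pairs, shares close to those of all regions, and the list median was 0.3 points against 0.426. The calls were at Cd48 and Gata2, both lower (0.803%, against 0.322% of all regions). The region 8548 bp from Cd48, a SLAM family gene whose protein is used to tell stem cells from later progenitors, ranked at 25.7, 47.7, 1.2 and 14.6 in P300KO_TET2KO and at 78.4, 79.6, 67.7 and 57.5 in P300KO, with no overlap (−48.5 ± 6.53 points, adjusted p = 0.00215). The region 27414 bp from Gata2, which encodes a transcription factor that HSPCs need, ranked at 63.3, 68.6, 44.9 and 22.9 against 84.8, 78.0, 69.2 and 75.5 (−27.0 ± 5.23 points, adjusted p = 0.0256). Without P300KO replicate 4 the Gata2 region did not pass (adjusted p = 0.155), and ranked by fold enrichment it gave −17.6 points (adjusted p = 0.159). The Gata2 promoter itself, one of the HSPC markers, ranked at 85.6, 82.4, 80.9 and 82.0 against 78.2, 85.4, 76.4 and 75.3, and these groups overlapped in replicates 1 and 2. A region 4253 bp from Slamf1, the CD150 gene, ranked at 35.0, 39.2, 41.9 and 31.5 against 40.6, 55.5, 50.9 and 50.1, which did not pass (adjusted p = 0.414).

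Megakaryocyte and platelet genes had the highest share of regions ranked higher in both pairs, 14 of 118 (11.9%) from 9 genes, against 3 (2.54%) ranked lower. None of them was called. The promoter of Gp5, a platelet glycoprotein gene, ranked at 39.6, 45.9, 50.5 and 37.2 in P300KO_TET2KO and at 36.4, 24.4, 10.02 and 24.3 in P300KO (adjusted p = 0.263). A region 10779 bp from the platelet integrin gene Itgb3 ranked at 59.7, 47.4, 55.7 and 44.3 against 32.7, 32.0, 33.0 and 42.8 (adjusted p = 0.273). A region 6200 bp from Fli1, which encodes an ETS factor of megakaryocytes and stem cells, ranked at 18.3, 23.4, 12.1 and 28.8 and was outside the strongest 50000 in all 4 P300KO libraries (adjusted p = 0.121). The reverse was seen 80292 bp from F13a1, the factor XIII subunit gene, with 0, 19.1, 10.01 and 0 against 35.3, 34.4, 46.0 and 37.6 (−31.0 ± 6.98 points, adjusted p = 0.0576).

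Erythroid and heme genes had 9 of 92 regions (9.78%) ranked higher and 5 (5.43%) lower. The promoter of Alad, an enzyme gene of heme synthesis, was called higher, at 99.3, 99.3, 90.5 and 89.8 in P300KO_TET2KO and 83.4, 86.8, 70.2 and 77.0 in P300KO (15.4 ± 1.42 points, adjusted p = 5.85e-05). Ranked by fold enrichment the same region gave −1.60 points, so its direction rested on the ordering by −log10 p. At a region in Cpox, another gene of heme synthesis, values were 50.8, 57, 54.8 and 46.9 against 74.9, 72.6, 61.0 and 73.6 (−18.2 ± 3.98 points, adjusted p = 0.0528). The rise at Alad was shared by nearby genes that are not on this list. The Hdhd3 promoter (13.7 points, adjusted p = 3.45e-06) and an exon region of Bspry (30.3 points, adjusted p = 0.0076) were called higher too. All 3 calls on chromosome 4 from 60 to 65 Mb were higher.

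Basophil, mast cell and eosinophil genes had 9 of 81 regions (11.1%) ranked higher and 6 (7.41%) lower, with 1 region called higher (1.23%, against 0.248% of all regions) and 2 called lower (2.47%, against 0.322%). The region 12837 bp from the mast cell tryptase gene Tpsab1 rose, with 51.6, 41.7, 26.1 and 42.1 in P300KO_TET2KO against 22.7, 0, 0 and 0 in P300KO (34.7 ± 7.2 points, adjusted p = 0.0377) but not without P300KO replicate 4 (adjusted p = 0.151). The region 12546 bp from Prg2, the eosinophil major basic protein gene, fell, with 0, 0, 17.1 and 0 against 47.5, 57, 57.7 and 51.4 (−49.1 ± 6.94 points, adjusted p = 0.00288), and the Gata2 region is also on this list. A region 37755 bp from Il1rl1, the IL-33 receptor gene, ranked at 0, 0, 0 and 8.4 against 13.5, 40.5, 42.2 and 33.6, short of the threshold (adjusted p = 0.0609).

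Among myeloid lineages, monocyte and macrophage genes had 8 of 125 regions (6.4%) higher and 9 (7.2%) lower, and dendritic cell genes 5 of 97 (5.15%) and 8 (8.25%), so in both lists the share ranked lower stood above that of all regions. The other lists were below all regions in both directions. Granulocyte genes had 1 of 63 (1.59%) and 2 (3.17%), B lymphoid genes 6 of 124 (4.84%) and 4 (3.23%), and T and NK lymphoid genes 5 of 141 (3.55%) and 3 (2.13%). An intron region of Cx3cr1, a chemokine receptor gene of monocytes, ranked at 24.1, 15.7, 20.2 and 32.4 against 0, 0, 0 and 6.5 (adjusted p = 0.116). An intron region of Dntt, which encodes terminal transferase and marks lymphoid priming, ranked at 30.0, 41.7, 29.5 and 58.3 against 61.6, 57.8, 70.9 and 72.4 (−25.8 ± 6 points, adjusted p = 0.067). Neither of these regions was called. The call in these lists was 5330 bp from the dendritic cell lectin gene Cd209a (1 of 97 regions, 1.03%, against 0.322% of all regions called lower), at 96.5, 95.6, 88.2 and 89.3 against 99.9, 99.9, 99.9 and 99.7 (−7.47 ± 1.09 points, adjusted p = 0.00349). Ranked by fold enrichment it differed by −0.011 points (adjusted p = 0.997).

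Homing and adhesion genes, which keep HSPCs in the marrow niche, had 31 of 279 regions (11.1%) from 20 genes ranked higher and 9 (3.23%) lower. A region in the integrin gene Itgav ranked at 35.9, 33.3, 34.7 and 39.2 in P300KO_TET2KO and at 0, 16.4, 1.8 and 6.5 in P300KO, just short of the threshold (29.6 ± 6.52 points, adjusted p = 0.0537). The integrin promoters Itga6 and Itga5 were ranked higher in both pairs too, Itga6 at 31.0, 37.2, 31.8 and 40.03 against 26.5, 0, 20.1 and 20.1 (adjusted p = 0.299) and Itga5 at 66.4, 69.9, 29.8 and 35.1 against 52.7, 48.1, 18.01 and 18.1 (adjusted p = 0.259). The call in this list was in the other direction, 12421 bp from Cd44, the hyaluronan receptor gene, at 26.3, 0, 15.8 and 0 against 46.7, 55, 39.7 and 47.9 (−36.8 ± 7.59 points, adjusted p = 0.0369). It was lost without P300KO_TET2KO replicate 2 (adjusted p = 0.161) and with the replicate number as a block (adjusted p = 0.0634).

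TNF and NF-kB response genes had 18 of 212 regions (8.49%) higher and 11 (5.19%) lower in both pairs, with 2 calls, both lower (0.943%, against 0.322% of all regions). The region 25881 bp from Nfkbia, which encodes the NF-kB inhibitor IkBa, ranked at 8.0, 0, 0 and 0 in P300KO_TET2KO and at 55.2, 54.8, 23.2 and 34.5 in P300KO (−39.9 ± 6.95 points, adjusted p = 0.013). Without P300KO_TET2KO replicate 2 its adjusted p was 0.0769, and ranked by fold enrichment it gave −28.6 points (adjusted p = 0.145). The region 57337 bp from the early-response gene Ier3 ranked at 0 in all 4 P300KO_TET2KO libraries and at 50.2, 35.1, 32.3 and 42.3 in P300KO (−40 ± 6.45 points, adjusted p = 0.0076). It was tested through the P300KO lists alone, which leaves Nfkbia as the call in this list with an interval in both genotypes. Interferon response genes had 5 of 134 regions (3.73%) higher and 4 (2.99%) lower, both below the shares of all regions, with 1 call (0.746%, against 0.322%). This was the region 50021 bp from Gbp6, an interferon-induced GTPase gene, at 0 in all 4 against 47.4, 44.2, 43.9 and 44.0 (−44.9 ± 6.19 points, adjusted p = 0.00257), which was likewise tested through the P300KO lists alone. Not called were the promoter of Ifi203, with 20.3, 24, 31.9 and 27.4 against 3.3, 8.0, 0 and 2.5 (adjusted p = 0.107), and a region near the TNF-induced gene Tnfaip2, with 14.7, 33.5, 30.9 and 24.4 against 5.1, 0, 0.6 and 1.2 (adjusted p = 0.0923).

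Cytokine and growth factor receptor genes had 16 of 207 regions (7.73%) higher and 9 (4.35%) lower, and both calls were falls (0.966%, against 0.322% of all regions). The short region 12291 bp from Ifngr2, an interferon gamma receptor gene, ranked at 71.6, 74.5, 55.9 and 53.7 in P300KO_TET2KO and at 87.1, 91.0, 90.5 and 90.2 in P300KO (−25.8 ± 3.04 points, adjusted p = 0.000947). The region 94858 bp from Tgfbr2, the TGF-beta type II receptor gene, ranked at 0, 0, 0 and 5.2 against 15.4, 54.6, 39.7 and 53.1 (−39.4 ± 8.06 points, adjusted p = 0.0351). The Tgfbr2 call was lost without P300KO_TET2KO replicate 3 (adjusted p = 0.157), while Ifngr2 passed in all 8 fits. Ranked by fold enrichment, neither passed, with −29.9 points at Ifngr2 and −50.4 at Tgfbr2 (adjusted p = 0.0699 at each). Within the TGF-beta and BMP list, 12 of 184 regions (6.52%) ranked higher and 12 lower. Promoter regions of Ski and Skil, which encode repressors of SMAD signaling, were ranked higher in both pairs without passing, Ski at 72.3, 74.3, 75 and 74.9 against 59.3, 62.0, 66.9 and 58.8 (adjusted p = 0.0624) and Skil at 36.9, 48.0, 34.0 and 44.2 against 14.9, 19.7, 3.6 and 14.6 (adjusted p = 0.086).

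In the Notch list, 15 of 183 regions (8.2%) ranked higher and 13 (7.1%) lower, and an intron region of Numb, a Notch antagonist gene, was called lower, at 0, 11.5, 0 and 0 against 31.5, 37.4, 33.5 and 30.8 (−30.4 ± 6.11 points, adjusted p = 0.0312). It was lost without P300KO_TET2KO replicate 3 (adjusted p = 0.154) and with the replicate number as a block (adjusted p = 0.0596). At Psen2, a subunit gene of the protease that cleaves Notch, the promoter region at 1617 bp ranked at 56.99, 58.8, 61.5 and 54 against 0, 42.1, 10.3 and 35.3 (adjusted p = 0.0745), while the one at 2044 bp lay lower in P300KO_TET2KO. In the Wnt list, 16 of 211 (7.58%) ranked higher and 7 (3.32%) lower. The promoter of the Wnt receptor gene Fzd8 was called higher, at 82.0, 80.6, 81.6 and 75.2 against 72.6, 64.5, 69.96 and 64.3 (12 ± 2.49 points, adjusted p = 0.0377), and gave −7.33 points when ranked by fold enrichment. Without P300KO_TET2KO replicate 1 its adjusted p was 0.19. RAS and MAPK genes leaned the other way, with 14 of 254 (5.51%) higher and 21 (8.27%) lower, and JAK-STAT and SOCS genes had 8 of 139 (5.76%) higher and 3 (2.16%) lower, with no call in either list. Among BCL2 family and cell death genes, 6 of 121 (4.96%) ranked higher and 8 (6.61%) lower. The region 4629 bp from Bmf, a pro-apoptotic BH3-only gene, fell from 59.5, 73.0, 63.3 and 68.2 in P300KO to 0, 19.8, 11.9 and 40.5 (−48.0 ± 7.74 points, adjusted p = 0.0076). Without P300KO replicate 4 its adjusted p was 0.0536.

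Chromatin genes bear on the 2 deleted enzymes. DNA methylation and TET genes had 4 of 104 regions (3.85%) higher and 8 (7.69%) lower. A region 8198 bp from Tet2 ranked at 8.5, 0, 18.4 and 5.3 in P300KO_TET2KO and at 47.7, 53, 28.6 and 21.2 in P300KO, with no overlap within either pair (−29.6 ± 7.76 points, adjusted p = 0.109). In TET2KO it ranked at 0.2, 0, 0 and 0 and in WT at 0, 10.5, 0 and 0. The promoter of Cxxc4, the neighbor of Tet2 whose protein binds unmethylated CpG and TET2, ranked at 38.5, 37.6, 15.4 and 5.2 and was at 0 in all 4 P300KO libraries (adjusted p = 0.117). Acetyltransferase, deacetylase and reader genes had 9 of 178 regions (5.06%) higher and 3 (1.69%) lower. In this list a promoter-side region of Ncoa2, a nuclear receptor coactivator gene, was called higher, at 28.6, 43.0, 45.3 and 46.2 against 20.8, 0, 0 and 0 (35.6 ± 7.39 points, adjusted p = 0.038). It was lost without P300KO replicate 4 (adjusted p = 0.171) and with the replicate number as a block (adjusted p = 0.0718), and was 14.8 points when ranked by fold enrichment (adjusted p = 0.179). Polycomb, trithorax and myeloid leukemia genes had 10 of 274 (3.65%) higher and 15 (5.47%) lower, with 2 calls (0.73%, against 0.322% of all regions), both lower. These were the Gata2 region above and an intron region of Jarid2, whose protein binds polycomb repressive complex 2, at 93.5, 93.3, 80.0 and 82.1 against 99.5, 99.5, 93.9 and 94.9 (−9.74 ± 1.22 points, adjusted p = 0.00133, and −2.33 points with an adjusted p of 0.325 when ranked by fold enrichment). An intron region of the polycomb gene Cbx7 ranked at 26.8, 34.3, 3.1 and 48.4 against 57.01, 63.7, 52.8 and 70.4 (adjusted p = 0.0948). With the replicate number as a block Cbx7 passed (adjusted p = 0.0465).

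The largest list, 703 regions of 93 blood transcription factor genes, was close to all regions, with 45 (6.4%) higher and 36 (5.12%) lower. Its 3 calls (0.427%, against 0.322% of all regions) were all lower, at the Gata2 region and both Nfe2l2 regions above. AP-1 and early-response genes had 16 of 278 in each direction (5.76%) and 2 calls, both lower (0.719%), at the Ier3 region above and 9490 bp from Ier5l. The Ier5l region fell by 4.22 points (SE 0.915, adjusted p = 0.0493), a call lost without P300KO replicate 4 (adjusted p = 0.198) and with the replicate number as a block (adjusted p = 0.0558), and was −1.82 points when ranked by fold enrichment. The promoter region of Myc, 1 of those ranked lower, was at 32.8, 35.3, 1.4 and 3.2 against 59.4, 50.1, 30.02 and 13.3 (adjusted p = 0.231). An intron region of Rara, the retinoic acid receptor gene, was at 36.05, 30.5, 27.7 and 11.3 against 0 in all 4 P300KO libraries (26.4 ± 6.09 points, adjusted p = 0.0647). In the Hoxa and Hoxb clusters 2 of 31 regions ranked higher and 1 lower, and the regions near Hoxb4 (adjusted p = 0.198) and Hoxb1 (adjusted p = 0.176) did not pass. Imprinted genes, whose expression depends on DNA methylation, had 11 of 106 (10.4%) higher and 5 (4.72%) lower with no call. Peg3 ranked at 57.9, 53.7, 53.9 and 61.7 against 44.3, 0, 45.4 and 25.8 (adjusted p = 0.177). Housekeeping lists had shares below or near those of all regions. Ribosomal protein genes had 8 of 160 (5.0%) higher and 7 (4.38%) lower, with 1 call at an intron region of Rpl11, at 25.8, 46.3, 36.3 and 36.1 against 4.3, 0, 7.2 and 0 (adjusted p = 0.0287, 0.151 without P300KO replicate 4 and 0.0532 with the replicate number as a block), and cell cycle and DNA replication genes 8 of 182 (4.40%) and 10 (5.49%). DNA repair and p53 pathway genes had 11 of 157 (7.01%) and 10 (6.37%), and hypoxia and glycolysis genes 15 of 179 (8.38%) and 8 (4.47%). Markers of other tissues were also read this way. Endothelial markers had 5 of 56 regions (8.93%) higher and 3 (5.36%) lower, stromal and bone markers 3 of 49 (6.12%) each way, and neuron and hepatocyte markers 2 of 25 (8.0%) and 1 (4.0%), with no call. The bar chart by gene list sets these shares side by side.

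**Figure D3:**
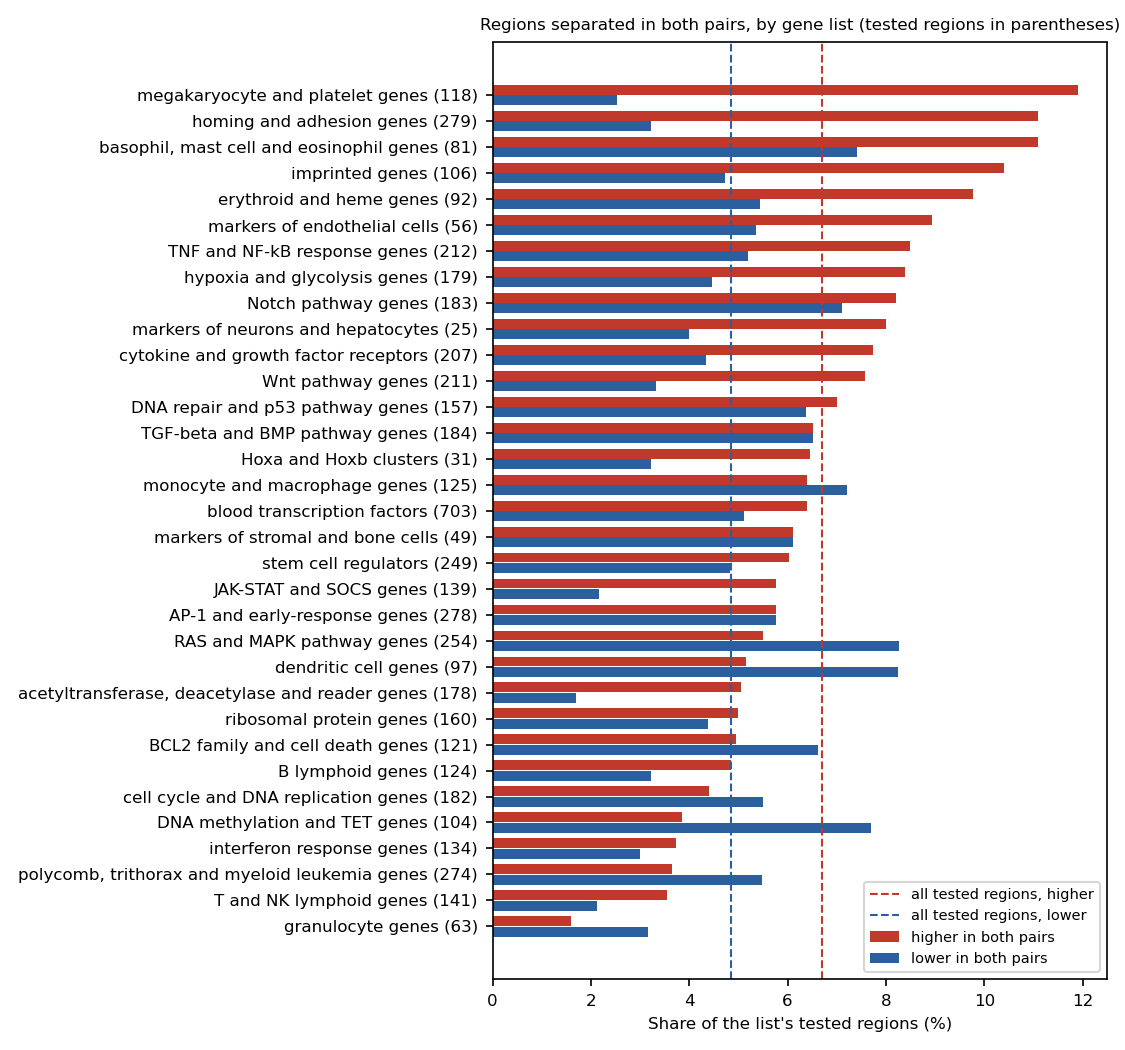
Share of each gene list's tested regions (percent, horizontal axis) that ranked higher (red) or lower (blue) in both replicate pairs, with the number of tested regions in parentheses. Dashed lines give the shares over all tested regions, 6.69% and 4.85%. Megakaryocyte and platelet genes, at 11.9% higher and 2.54% lower, stand at the top, and granulocyte genes, at 1.59% and 3.17%, at the bottom.

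Called regions differed from other regions in position and base composition, given here as counts without a test. Over all tested regions 47.5% lay within 3 kb of an annotated transcription start and 23.9% were intergenic. The starts counted here include those of noncoding transcripts. Of the regions called higher 39.8% were at a start and 30.1% intergenic, and of those called lower 29.4% were at a start and 64 of 160 intergenic. Regions ranked higher in both pairs without regard to calls were at a start in 49.8%, and those ranked lower in 45.8%. CpG-rich windows, with an observed to expected CpG ratio of at least 0.6 and a GC content of at least 50%, made up 24.9% of all regions, 19.5% of those called higher and 15.6% of those called lower. Windows without any CpG made up 6.08% of all regions, 6.2% of those ranked higher and 4.49% of those ranked lower in both pairs, and 4.88% and 3.12% of those called higher and lower.

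Over the whole lists, the same 2 properties were compared between genotypes. Called regions are too few to move these shares, and those called higher and those called lower were both more often over 3 kb from a start (60.2% and 70.6%, against 52.5% of all regions). The share of the strongest 50000 intervals over 3 kb from a start was 52.0% ± 1.2 (SD, n = 4) in P300KO_TET2KO and 52.1% ± 1.28 (SD, n = 4) in P300KO, so the genotypes differed by −0.0565 percentage points (p = 0.914 in an exact permutation test, two-sided, whose 70 regroupings allow no p under 0.0286). CpG-rich intervals made up 25.2% ± 0.992 and 25.1% ± 0.831 (SD, n = 4 in both), which differed by 0.111 percentage points (exact permutation p = 0.971). Both differences were far smaller than the spread between replicates, which followed the replicate pair more than the genotype.

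Transcription factor motifs in the distal regions, those over 3 kb from a start, differed between the regions ranked higher and lower in both pairs. Letters were searched on both strands in the 201 bases around the summit. The PU.1 string GAGGAAGT, of the ETS factor that drives myeloid and B cell fates, was in 10.2% of all 26084 distal regions, 16.3% of the 1667 ranked higher and 4.98% of the 1304 ranked lower. The RUNX string TGTGGTT was in 13.1%, 19.1% and 11.0%, the GATA string AGATAA in 10.5%, 13.8% and 9.66%, and the AP-1 strings TGACTCA and TGAGTCA in 7.14%, 9.30% and 5.29%. C/EBP strings (TTGCGCAA, TTGCACAA and TTGCATCA) had the reverse order, with 1.91%, 1.62% and 3.6%, and so had the CTCF strings CCCTCTGG and AGGGGGCG, with 6.74%, 4.86% and 7.67%. The TAL1 string CAGATG, which GATA and RUNX windows can also hold, was in 18.1%, 16.7% and 19.9%. A string in a window is a description of sequence, not a bound factor.

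The motif pattern was then read within each library, as the mean rank percentile of distal regions with a string minus that of regions without it. For PU.1 this difference was 0.343, 1.78, 5.23 and 4.39 points in P300KO_TET2KO replicates 1 to 4 and −0.133, −0.43, 0.622 and 2.09 in P300KO. The genotypes did not overlap within either pair. In TET2KO the PU.1 difference was −1.0, −0.003, 4.35 and 2.79 and in WT −1.16, 0.595, 3.50 and 2.01, which overlapped in both pairs. For C/EBP it was −2.05, 0.919, 1.54 and −1.01 in P300KO_TET2KO and 2.80, 2.55, 2.89 and 3.31 in P300KO, again with no overlap within a pair. In TET2KO the C/EBP difference was −1.52, −1.82, −1.50 and −5.34 and in WT −1.63, 2.45, −3.21 and −1.57. TET2KO and WT overlapped in both pairs. For RUNX, AP-1, GATA and CTCF the genotypes overlapped in replicates 1 and 2 and were apart in replicates 3 and 4, AP-1 only narrowly, with 3.52 as the lower P300KO_TET2KO value and 3.50 as the higher P300KO value. The GATA difference was 1.32, 0.238, −0.964 and −1.19 in P300KO_TET2KO and 1.01, 2.06, −3.74 and −3.54 in P300KO. The CTCF difference was 2.55, 2.11, −1.74 and 0.314 in P300KO_TET2KO and 2.17, 1.34, 2.94 and 0.815 in P300KO, so the order seen for CTCF above was that of replicates 3 and 4. For TAL1 it was −0.583, −0.706, 0.153 and 0.218 against −0.275, 0.0765, 0.312 and 0.672, lower in P300KO_TET2KO within both pairs but by less than 1 point. The part of signal strength in these values was not tested.

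**Figure D4:**
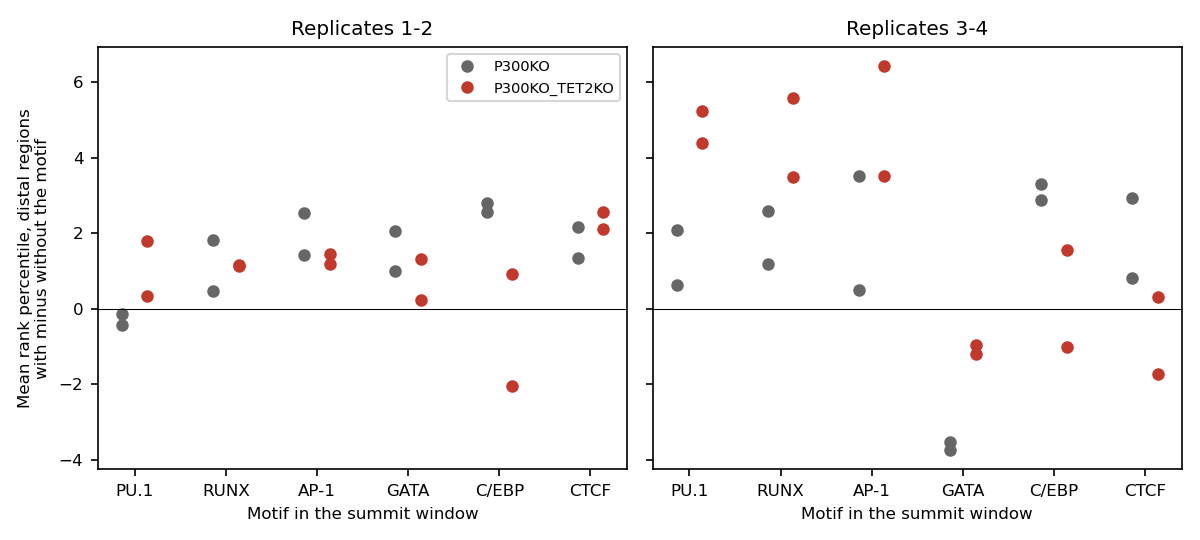
Mean rank percentile of distal regions with a motif minus that of distal regions without it (percentile points, vertical axis) for 6 motifs, 1 point for each library, with replicates 1 and 2 on the left and replicates 3 and 4 on the right. P300KO_TET2KO (red) lies above P300KO (gray) for PU.1 and below it for C/EBP in both panels, while AP-1 overlaps in replicates 1 and 2.

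Called regions were not spread evenly over the genome. In windows of 5 Mb, 168 of 533 windows with a tested region held a call, and the 7 windows with at least 5 calls held 46 of the 283 (16.3%) and 1082 of the tested regions (2.18%). The windows with most calls were on chromosome 4 from 115 to 120 Mb, with 9 calls among 207 tested regions, on chromosome 1 from 170 to 175 Mb, with 8 among 202, where Cd48, Cd244a and other SLAM family genes lie, and on chromosome 4 from 120 to 125 Mb, with 7 among 148, where Smap2 and Cap1 lie. In the chromosome 1 window 5 calls were higher and 3 lower. An intron region of Cd84, another SLAM family gene, was among the higher ones (36.7 ± 7.49 points, adjusted p = 0.0347), opposite to Cd48 and Cd244a. On chromosome 13 from 110 to 115 Mb all 6 calls were lower. Over whole chromosomes, chromosome 4 had 25 regions called higher (0.782%) and 21 lower (0.657%) of 3195, the highest share among the autosomes in each direction. These windows were chosen after their counts were seen. Whether the mouse lines differ in strain background in these windows could not be seen from the peak lists.

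The comparison of TET2KO with WT asked whether the same regions differed when p300 was present, in 8 libraries that had no part in the calls above. Replicate 4 stood apart in part of the largest regions. TET2KO replicate 4 was nearer to the mean of WT replicates 1 to 3 than to that of its own replicates 1 to 3 at 14 of the 24 largest regions, 10 of them among the falls, for example at Creb3l2, where TET2KO ranked at 0, 0, 0 and 89.5 and WT at 59.3, 57, 90.1 and 85.5. WT replicate 4 was nearer to TET2KO at 5 of the 24, for example at Glis1, where WT ranked at 0, 0, 12.8 and 60.7 and TET2KO at 74.1, 73.2, 80.6 and 71.2. WT replicate 1 had the weakest list, with a −log10 p of 4.11 at rank 50000. limma called 0 regions between TET2KO and WT (0.0%). An unadjusted p under 0.05 was reached by 3480 regions (7.0%), against 6419 (12.9%) for P300KO_TET2KO and P300KO, and the lowest adjusted p was 0.695. Leaving out any library, or replicate 4 of both genotypes, also gave 0 calls.

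The direction of the called regions was nonetheless mostly the same. Of the 123 regions called higher, 116 (94.3%) had a higher mean rank percentile in TET2KO than in WT, and of the 160 called lower 154 (96.2%) had a lower mean. Over all tested regions these shares were 58.9% and 40.5%. With replicates 1 to 3 alone the counts were 117 and 151. Separation in both pairs of TET2KO and WT was seen for 30 of the 123 (24.4%) in the higher direction, against 4.40% of all regions, and for 48 of the 160 (30.0%) in the lower direction, against 2.62%. All 24 of the largest regions had the same sign. The median rank percentile of the regions called higher was 51.3, 51.2, 51.0 and 43.7 in TET2KO and 4.83, 17.5, 25.6 and 33.2 in WT, beside 55.5 to 59.1 in P300KO_TET2KO and 13.6 to 17.9 in P300KO. For the regions called lower it was 31.4, 32.1, 36.5 and 46.9 in TET2KO and 60.4, 59.0, 59.9 and 60.1 in WT, beside 10.5 to 19.8 in P300KO_TET2KO and 58.4 to 63.3 in P300KO. The regions were chosen for the distance between P300KO_TET2KO and P300KO, which sets the medians of these genotypes apart, so the place of TET2KO and WT relative to them is no measure of effect size.

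**Figure D5:**
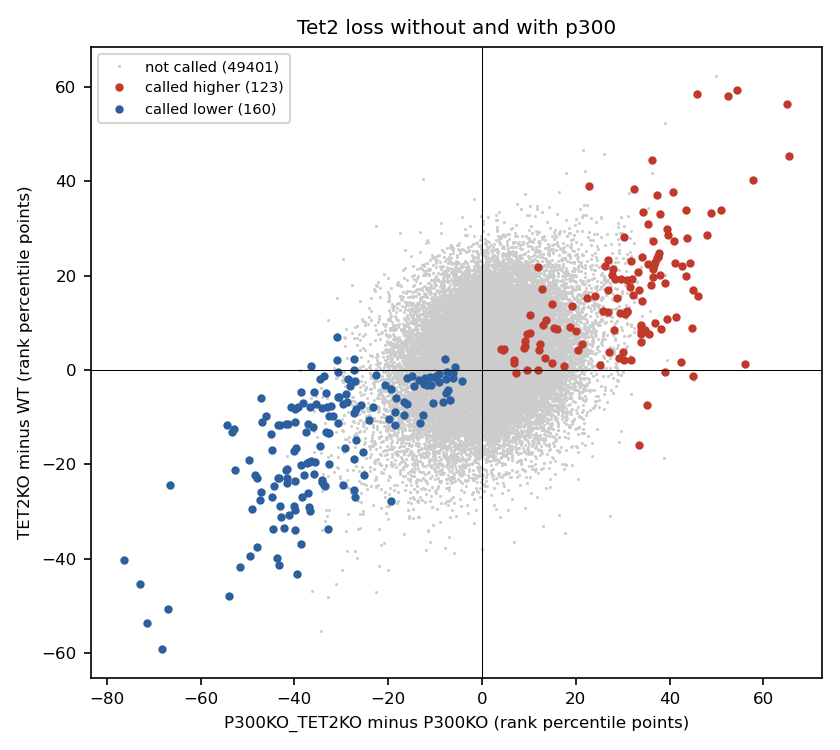
Each point is 1 of the 49684 tested regions, placed by the difference P300KO_TET2KO minus P300KO on the horizontal axis and the difference TET2KO minus WT on the vertical axis, both in percentile points. Of the red points, called higher, 116 of 123 lie above 0 on the vertical axis, and of the blue points, called lower, 154 of 160 lie below it.

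The interaction of Tet2 and p300 genotype over all 16 libraries, which tests whether the effect of Tet2 loss differed between p300 backgrounds, was called at 0 regions (0.0%), with an unadjusted p under 0.05 at 2703 (5.44%) and a lowest adjusted p of 0.196. That lowest value was at the region 20881 bp from Cdrt4. There P300KO_TET2KO ranked at 64.4, 67.3, 74.1 and 58.5 and P300KO at 0, 23.0, 7.0 and 9.9, while TET2KO ranked at 0, 5.2, 0 and 0 and WT at 0 in all 4. The Tet2 difference was 56.0 ± 7.07 points without p300 and 1.29 with it, an interaction of 54.8 ± 8.99 points that did not pass after adjustment. Without P300KO replicate 2 the interaction was called at 2 regions. Regions called between P300KO_TET2KO and P300KO are thus not shown to respond differently to Tet2 loss when p300 is present.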

How the data were processed

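ATAC-seq was done on HSPCs of 4 genotypes with 4 libraries each, and samples were grouped by their titles. Per the labels, the submitters' processing notes and the study's methods, the authors trimmed adapters (cutadapt 1.9.1), aligned reads to mm10 (Bowtie2 2.2.6), removed duplicates, shifted reads for the Tn5 cut and called peaks in each library (MACS2 2.1.0). The deposited narrowPeak lists give, for each peak, the fold enrichment over background as a ratio, and the −log10 p and −log10 q of the caller. The authors did not make these values comparable between libraries, so only ranks by −log10 p within a list were compared. Counts of reads are not in these lists, so depth is unknown and no counting interval was given.

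Summits of 1 interval were counted once, the strongest 50000 intervals of each list kept, and overlapping intervals (at least 1 bp) of the 8 libraries merged. Regions in at least 4 of 8 lists were tested with limma 3.58.1 (R 4.3.3, variance trend, replicate pair as covariate) at a Benjamini-Hochberg adjusted p of 0.05. The adjusted p-values in the text are limma's over all regions tested. They cover the spread between libraries, each a pool of 2 mice. Single values per library were compared with exact permutation tests. Other steps used scipy 1.17.1, pandas 2.3.3 and numpy 2.4.6, and figures matplotlib 3.10.9, under Python 3.11.15. The fit was tested on simulated data.

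Regions were named by the protein-coding gene (GENCODE M21) with a start within 3 kb, else the gene they lie in, else the nearest start within 100 kb. Nearness does not show that a region acts on the gene. Distances are to the nearest start of that gene. Named were the 12 regions that rose and the 12 that fell most by the smaller of both pair differences, up to 4 regions each way in each of 33 gene lists (1216 of 1230 symbols matched), and the regions of Ep300 and Tet2. Some of these are not reported here. The called list regions near Cd209a and Ier5l and in Jarid2 were named after their values were seen. The comparison, its members and the lists were chosen with earlier results of these data known.

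Same-numbered replicates of P300KO_TET2KO and P300KO deviated together, with correlations of 0.271, 0.273, 0.300 and 0.392 for numbers 1 to 4, but 0.308, 0.258, 0.387 and 0.391 with the other number of the same pair. The labels give the numbers no shared animal or day. The replicate number as a block was an alternative, as were other list sizes, ranking by fold enrichment, log2 of rank, summit windows, no filter, no covariate, no variance trend, all 16 libraries in 1 fit, each replicate pair alone and each library left out. Sequences were read from GRCm38 (mm10).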

Additional observations from a re-analysis of the deposited data

Results flagged for a closer look

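Among 52 groups of 4 libraries, those of the 24 regions with the largest differences included, 4 had a library far from the other 3, where chance gives about 1 in 20. In P300KO_TET2KO, replicate 3 had a rank percentile of 17.1 at the region near Prg2, replicate 1 had 5.19 in Ptpn21 and replicate 2 had 40.7 at the region chr14:118370800 with no gene, while the other 3 libraries were at 0 in each case. In P300KO, replicate 1 had 14.2 in Cap1 and the other 3 were at 0. A 0 stands for any rank past 50000, which makes a lone value look far from the rest.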

How the results depend on the processing

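The 24 regions with the largest differences never changed direction under the alternatives tried, and over all refits of them 90 lost and 1 gained a call. These regions were chosen as separated in both pairs. Refits on the same ranks, such as 1 pair alone or 1 library left out, could therefore not turn them. The cause of the changes below was not tested, unless fewer regions or libraries entered a fit. Against 283 called regions, limma called 160 with the strongest 30000 intervals, 90 when ranked by fold enrichment, 182 with summit windows, 7 with no filter, 52 with no covariate, 122 with no variance trend and 0 in replicates 1 and 2 alone or in replicates 3 and 4 alone, where 4985 and 6483 regions had an unadjusted p under 0.05. The share of calls that were higher was 28.6% with no filter and 34.6% with no covariate. Leaving out 1 library gave 70 to 426 calls. With the replicate number as a block 214 regions were called, and among the regions named no call changed beyond those given above and the smaller falls of Smap2 and Chst11, which lost theirs.

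The regions separated in both replicate pairs numbered 5732, and 3468 with the strongest 30000, 8968 with the strongest 80000, 9338 when ranked by fold enrichment, 19878 in replicates 1 and 2 alone, 21788 in replicates 3 and 4 alone, and 7911 to 9622 without 1 library, where separation is easier to reach. The interaction had 0 to 2 calls without 1 library. The distal share differed by 0.233 points with the strongest 80000 and by −0.57 to 0.334 without 1 library, and the CpG-rich share of the strongest 50000 by −0.142 and by −0.203 to 0.458. Sign flips of same-numbered replicates, the replicate block of these shares, gave exact permutation p of 0.625 and 0.875, where 0.125 is the smallest possible. Ranked by fold enrichment, the difference turned to −0.317 at the Frmd5 promoter, −1.60 at Alad, −0.55 at the Ep300 region 16083 bp away, −7.33 at Fzd8 and −4.01 and −16.6 at Mid1. Of the uncalled regions of the targeted genes, the Tet2 promoter turned to 0.884 and the Tet2 region 77714 bp away to 4.50 with summit windows, the latter to 2.16 in replicates 3 and 4 alone and to −3.94 to 1.49 without 1 library, and the Ep300 region 16083 bp away to −1.25 to 5.39. Peak lists hold no depth, so weak regions past the list size could not be compared.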
